A study of Rattus norvegicus with 16 samples.

Results

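The C/EBP transcription factors measured here were the 5 genes Cebpa, Cebpb, Cebpd, Cebpe and Cebpg, followed in the rat epididymis after the flow of fluid from the testis was stopped. Members were all probe sets whose platform annotation gives 1 of these symbols, which were 12 of the 31042 probe sets on the array, and the 5 genes were among 14217 genes with a probe set of their own. Where a gene had several probe sets, the probe set with the highest mean over the 16 arrays led. Of the 12, 5 probe sets, from Cebpb, Cebpd and Cebpg, passed the minimum of a log2 level of 5 in at least 4 arrays and were tested.

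The tissue was the most proximal part of the initial segment, the first stretch of the epididymis, from adult male Sprague-Dawley rats. The efferent ducts, which carry testicular fluid to the epididymis, were ligated on 1 side (efferent duct ligation, EDL), and the tissue was taken 6, 12 or 18 h later. The controls came from sham operations on the opposite side of the same animals, carry a time of 0 in the labels and served all 3 times, so time after an operation without ligation was not measured separately. Each of the 4 groups (sham, 6 h, 12 h and 18 h of EDL) had 4 arrays. The study's title names ERK, STAT and NFKB signalling and apoptosis as the processes of interest. The labels do not tie replicate numbers to animals.

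C/EBP proteins are basic leucine zipper (bZIP) factors that bind DNA as dimers with each other or with related bZIP proteins. Cebpb and Cebpd encode the family's responders to cytokines such as IL-6 and IL-1 and activate acute phase genes in the liver. Cebpa is known for its part in the differentiation of liver, fat and myeloid cells, Cebpe for late granulocyte maturation, and Cebpg lacks a strong activation domain and pairs with other bZIP factors, ATF4 among them.

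Of the 3 tested genes, 1 passed the test, at 12 h and 18 h, where 7.86% and 10.2% of all tested probe sets passed. Cebpd rose by 2.47 on the log2 scale at 12 h (5.53-fold) and by 2.88 at 18 h (7.38-fold) of ligation. Cebpb, which was well above background on every array, and Cebpg did not pass the test at any time. Cebpa and Cebpe did not reach the minimum level on any array.

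All levels below are the deposited log2 values of the arrays. Levels under 5 could not be separated from background. A change from a mean under 5 is marked "as read". It takes that mean for the starting level and is not a lower bound. Counted from 5 instead, such a change would be smaller. A call is an adjusted p under 0.05 from limma, with Benjamini-Hochberg adjustment over the 13410 tested probe sets of that comparison. Of these 13410, 15, 505 and 697 were called higher than sham at 6, 12 and 18 h, and 23, 549 and 665 lower. These numbers stand beside the counts of every gene list below. A share of 41.2% to 41.8% of the probe sets stood at or above 5 on each array. Of 11 epithelial and initial segment markers, 11 were above 5 on all arrays, and their mean level lay between 10.3 and 11.1 on the 16 arrays. Of these, Elf3 and Cldn4 rose and Ggt1 fell at 12 h and 18 h. Because the tissue is bulk RNA, fewer cells of a type and less RNA per cell cannot be told apart in any value that follows.

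Cebpd, on rat chromosome 11 (chr11:98268856-98269994 in the GRCr8 assembly), was measured by 3 probe sets. On its leading probe set (1387343_at) the 4 sham arrays read 5.39, 5.36, 5.33 and 5.65, and the 4 arrays at 6 h read 5.93, 6.45, 6.56 and 6.39, in the order of replicates 1 to 4. The 12 h arrays read 8.18, 8.30, 7.97 and 7.15, and the 18 h arrays read 8.34, 8.70, 8.15 and 8.06. Each ligated array therefore lay above each sham array, at all 3 times, while the 12 h and 18 h arrays overlapped. The group means were 5.43 ± 0.15 in sham, 6.33 ± 0.28 at 6 h, 7.90 ± 0.52 at 12 h and 8.31 ± 0.28 at 18 h (SD, n = 4).

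At 6 h the Cebpd difference was 0.90 (SE 0.23), which did not pass the test (adjusted p = 0.205). In this comparison 0 of the 5 tested member probe sets were called, where 0.283% of all tested probe sets were called and 764 had an unadjusted p under 0.05, and 1 of the 5 had all 4 ligated arrays above all 4 sham arrays, against 2.87% of all tested. The call is sensitive to the fit. It was made when the set of arrays was fitted as a block (adjusted p = 0.0480). The 3 sets were replicates 1 and 2 of all groups, replicates 3 and 4 of sham and 6 h, and replicates 3 and 4 of 12 h and 18 h. It was also made when replicate 4 of the 12 h group was left out (adjusted p = 0.0381).

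At 12 h the rise was 2.47 (SE 0.23, 95% interval 1.98 to 2.95, adjusted p = 1.44e-05). Both called member probe sets, 2 of 5, were those of Cebpd, beside 7.86% of all tested probe sets called, and the same 2 had all 4 ligated arrays above all sham arrays, which 6.37% of the tested probe sets showed. By size of rise it ranked 29th of 13410. At 18 h the rise was 2.88 (SE 0.23, 95% interval 2.40 to 3.37, adjusted p = 3.61e-06), and again 2 of 5 member probe sets, both of Cebpd, were called, beside 10.2% of all tested, and 2 of 5 lay wholly above sham, beside 7.66%. 1 of these 2 probe sets, 1368813_at, was under 5 on every sham and 6 h array. It passed the minimum level only through its 12 h and 18 h arrays. Its calls against sham and 6 h are therefore not separate support. When all probe sets of a symbol were averaged, which for Cebpd brings in a probe set at the floor of the scale on every array, the changes were 0.39, 1.50 and 1.87 at 6, 12 and 18 h, and the last 2 remained called.

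Between the times, the leading Cebpd probe set was 1.56 higher at 12 h than at 6 h (SE 0.23, adjusted p = 0.00152) and 1.98 higher at 18 h than at 6 h (adjusted p = 1.64e-04). For these comparisons 2 of 5 member probe sets were called in each, both of Cebpd, beside 4.28% and 7.88% of all tested probe sets. Within replicates 3 and 4 alone, no member was called between 12 h and 6 h, beside 115 of the 13410 tested probe sets. In those replicates the 12 h and 18 h arrays were of another set than the 6 h arrays. Time and set cannot be told apart there. With the set of arrays as a block, the leading probe set differed from 6 h by 1.94 at 12 h and 2.35 at 18 h (limma, adjusted p = 4.96e-04 and 1.03e-04). From 12 h to 18 h the difference was 0.42 (95% interval -0.07 to 0.90, adjusted p = 0.791). In that comparison 0 of the 5 members were called, beside 0% of all tested probe sets by limma, with 877 probe sets at an unadjusted p under 0.05. In rising order the levels were thus sham, 6 h, 12 h and 18 h, and of the neighbours in this order only 6 h and 12 h differed past the test.

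**Figure D1:**
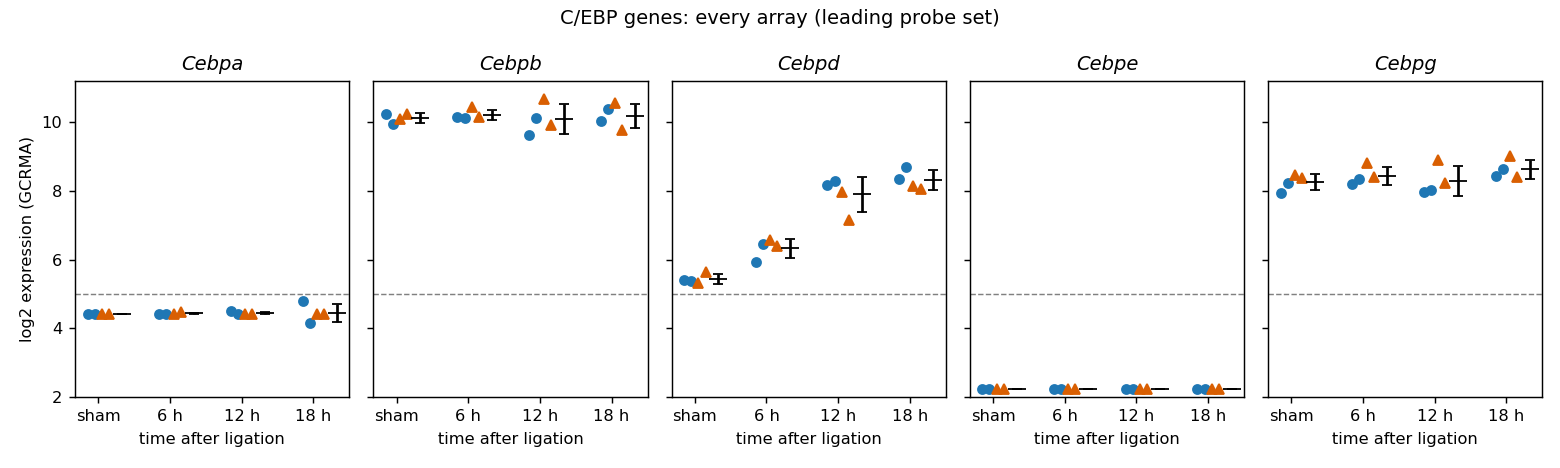
Deposited log2 level of each member gene's leading probe set on each of the 16 arrays (y axis) by group (x axis: sham, 6, 12 and 18 h of ligation). Circles are replicates 1 and 2, triangles replicates 3 and 4, the dash and bar give the mean ± SD of 4 arrays, and the dashed line marks the level of 5. Cebpd climbs from a mean of 5.43 in sham to 8.31 at 18 h, while Cebpb stays near 10 in all groups and Cebpa and Cebpe lie under the dashed line.

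The second Cebpd probe set (1368813_at) read 3.97, 4.56, 4.61 and 4.00 in sham and 3.97, 4.71, 4.91 and 4.62 at 6 h, all under 5, so that no change between these groups is given. It read 6.97, 6.91, 6.12 and 5.30 at 12 h and 7.61, 7.62, 6.34 and 6.43 at 18 h. The rise as read was 2.04 at 12 h (SE 0.39, adjusted p = 0.00492) and 2.72 at 18 h (SE 0.39, adjusted p = 4.50e-04). Both probe sets put every 12 h and 18 h array above every sham array, and over the 16 arrays, which they share, their correlation was 0.95. The second probe set passed the minimum level only through these 12 h and 18 h arrays, so its separation from sham is not separate support. The third, 1389828_at, stayed at the lowest value of the scale, 2.22, on all 16 arrays. The 3 probe sets of Cebpd therefore disagree, and the stretch of transcript that each reads was not analysed here.

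The rise of Cebpd was seen in both sets of replicates. Replicates 1 and 2 gave 2.86 at 12 h and 3.14 at 18 h, and replicates 3 and 4 gave 2.07 and 2.62. A limma test of the difference between these replicate sets had an adjusted p of 0.432 at 12 h and 0.645 at 18 h (unadjusted p = 0.0518 and 0.176). On the second probe set, replicates 1 and 2 rose by 2.68 and 3.35 as read, and replicates 3 and 4 by 1.41 and 2.08. The same test there gave an unadjusted p of 0.0183 and 0.0185 (adjusted p = 0.310 and 0.326). Within replicates 3 and 4, the 12 h and 18 h arrays differ in set from the sham and 6 h arrays. Ligation or its time and the set of arrays cannot be told apart in those comparisons. The dap control probe sets, which read a spike-in, were at 6.38 to 8.57 in those sham and 6 h arrays and at 2.22 on all other arrays. In all, 36.9% of the tested probe sets differed between replicates 1 and 2 and replicates 3 and 4, Cebpg among the members (0.36 higher in replicates 3 and 4, SE 0.12, adjusted p = 0.0312).

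**Figure D2:**
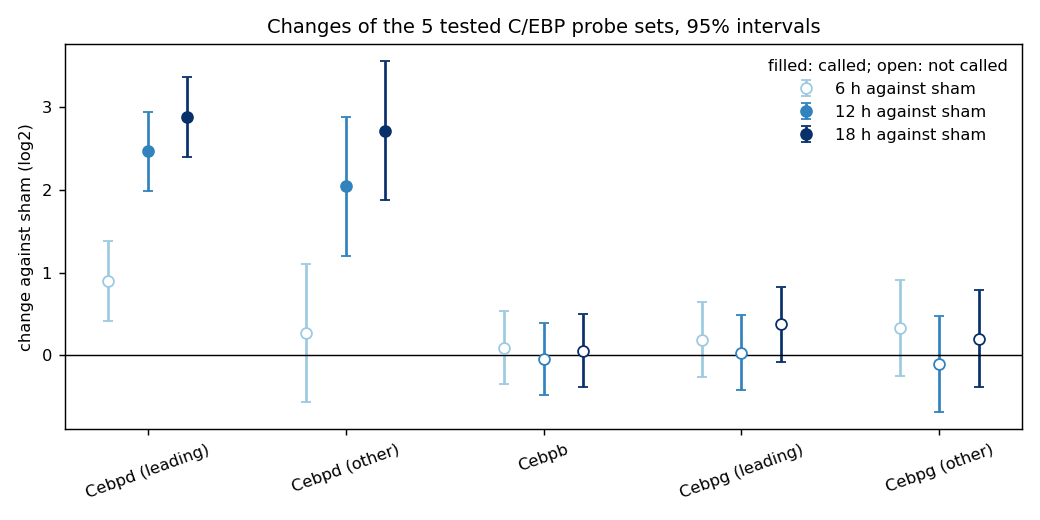
Change against sham (y axis, log2) for the tested member probe sets (x axis), with 6, 12 and 18 h as shades and 95% intervals from limma. Filled points passed the adjusted p threshold. The 2 Cebpd probe sets are filled at 12 h and 18 h, and the intervals of Cebpb and Cebpg cross 0 at all 3 times. The 6 h point of the second Cebpd probe set lies between 2 means under 5.

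S100a8 and S100a9, which were on the list of neutrophil markers and encode calcium-binding proteins of myeloid cells, were high on 2 arrays of the 12 h group. S100a8 read 4.92 in replicate 1 and 8.75 in replicate 2, and S100a9 read 8.47 and 10.36 there, against at most 4.61 for S100a9 on the other 14 arrays. The mean over 5 neutrophil markers was 4.01 and 5.36 on those arrays and 2.35 to 2.73 on the others, and the other 3 matched markers, Csf3r, Mmp8 and Cxcr2, were under 5 on all 16. The same 2 arrays had the highest macrophage marker means of the 12 h group, 7.10 and 7.43. Cebpe, the granulocyte member, stayed at 2.22 on them too. With those arrays left out, a choice made after seeing the data, the Cebpd rise at 12 h was 2.13 (adjusted p = 4.05e-04). The 2 arrays were also the highest in Cebpd within the 12 h group, at 8.18 and 8.30 against 7.97 and 7.15 in replicates 3 and 4. At 18 h, replicates 1 and 2 read 8.34 and 8.70 for Cebpd and 2.39 and 2.22 for S100a8. The part of the cells behind the S100a8 and S100a9 signal in the Cebpd values was not tested.

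Macrophage markers varied as well. The mean over 12 markers ran from 5.83 to 6.44 in sham, 5.60 to 6.37 at 6 h, 5.04 to 7.43 at 12 h and 6.06 to 7.18 at 18 h, with Cd163 and Adgre1 under 5 on all arrays. Of the 10 that were tested, 0, 0 and 1 (Cd14) rose at 6, 12 and 18 h. The lowest macrophage mean, 5.04, was that of replicate 4 at 12 h, the 12 h array with the lowest Cebpd level, and the part of macrophages in the Cebpd values was not tested. All 6 hepatocyte markers, Alb among them, and 4 of 6 fat cell markers (Adipoq, Plin1, Cidec and Lep) were under 5 on all 16 arrays.

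Cebpb lies on chromosome 3 and Cebpg on chromosome 1, where Cebpg neighbours Cebpa (chr1:96820981-96829736 and chr1:96896584-96899256 in GRCr8). Their promoters are printed as the RefSeq reference of the members that were expressed and did not pass the test, 300 bases each from 250 before the annotated start, read 5′ to 3′ along the gene's strand. Of the 5 members, 4 had a promoter in the table used (Cebpa, Cebpb, Cebpe and Cebpg). Capitals mark motif matches on either strand: TATAAA in Cebpb (chr3:176816755-176817054, plus strand, 33 bases before the start), and in Cebpg (chr1:96829687-96829986, minus strand) CCAAT read on the opposite strand, 116 and 55 bases before the start, and the C/EBP motif TTNNGNAA on both strands, 33 bases after it.
Cebpb: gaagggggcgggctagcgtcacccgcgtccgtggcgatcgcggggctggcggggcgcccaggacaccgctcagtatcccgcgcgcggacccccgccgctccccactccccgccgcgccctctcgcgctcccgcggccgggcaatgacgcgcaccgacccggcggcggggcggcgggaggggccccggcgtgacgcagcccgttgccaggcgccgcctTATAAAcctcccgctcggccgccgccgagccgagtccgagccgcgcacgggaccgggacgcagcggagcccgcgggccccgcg
Cebpg: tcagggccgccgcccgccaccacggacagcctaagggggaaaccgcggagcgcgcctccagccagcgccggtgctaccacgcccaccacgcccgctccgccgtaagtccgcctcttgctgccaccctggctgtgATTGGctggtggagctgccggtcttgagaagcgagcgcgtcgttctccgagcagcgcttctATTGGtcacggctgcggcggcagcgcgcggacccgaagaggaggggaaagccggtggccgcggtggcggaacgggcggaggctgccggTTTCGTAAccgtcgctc

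The same search covered TTCNNNGAA (STAT), TGACGTCA (CRE), TGANTCA (AP-1) and GGGACTTTC (NFKB), none of which matched in these 2 windows. Among 33469 promoter windows of this length in the same table, 41.3% held TTNNGNAA, 37.5% CCAAT, 14.2% TATAAA, 8.87% TTCNNNGAA, 7.33% TGANTCA, 1.83% TGACGTCA and 0.326% GGGACTTTC. A match is a description of letters and does not show a bound site.

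Cebpb, measured by the single probe set 1387087_at, read 10.24, 9.94, 10.10 and 10.25 in sham and 10.16, 10.13, 10.44 and 10.16 at 6 h. The 12 h arrays read 9.64, 10.13, 10.67 and 9.91, and the 18 h arrays 10.04, 10.38, 10.57 and 9.76. The groups overlapped at every time, and the widest spread was at 12 h (SD 0.44). The differences from sham were 0.09, -0.04 and 0.06 at 6, 12 and 18 h (SE 0.20, adjusted p = 1, 0.954 and 0.924). The 95% intervals ran from -0.35 to 0.53, -0.48 to 0.40 and -0.38 to 0.49. With 4 arrays a group, changes inside these intervals were not excluded. The sign of the 12 h and 18 h differences turned under some alternatives.

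Cebpg read 7.92, 8.24, 8.47 and 8.37 in sham on its leading probe set (1372885_at). It read 8.20, 8.33, 8.81 and 8.41 at 6 h, 7.97, 8.02, 8.90 and 8.22 at 12 h, and 8.44, 8.65, 9.02 and 8.40 at 18 h. Sham and ligated arrays overlapped at all times. The differences from sham were 0.19, 0.03 and 0.38 (SE 0.21, adjusted p = 1, 0.973 and 0.335), with 95% intervals of -0.27 to 0.64, -0.43 to 0.48 and -0.08 to 0.83. With the replicate number as a block the 18 h difference was called (adjusted p = 0.0415), and the sign of the 12 h difference turned under several alternatives.

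The other Cebpg probe set, 1371038_at, ranged from 5.89 to 6.89 in sham, 6.58 to 6.86 at 6 h, 6.15 to 6.57 at 12 h and 5.65 to 7.17 at 18 h. Its differences from sham were 0.33, -0.10 and 0.20 (SE 0.27), none of them called. At 18 h its replicates 1 and 2 gave 0.93 and replicates 3 and 4 gave -0.53, a difference between replicate sets with an unadjusted p of 0.00498 and an adjusted p of 0.192 by limma. The correlation with the leading Cebpg probe set was 0.49 over 16 arrays.

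Cebpa had 5 probe sets. The leading one (1383243_at) lay between 4.14 and 4.78 on the 16 arrays, with group means of 4.42, 4.43, 4.44 and 4.44 in sham and at 6, 12 and 18 h. A second, 1384127_at, reached 4.29 at most, and 1369658_at stayed at 2.22 on all arrays. The highest single value of the other two was 3.54. Cebpe (1387764_at) was at 2.22 on all 16 arrays. For both genes the data give a level not told from background in all 4 groups, and no change.

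To ask whether the 3 tested genes moved by different amounts, the difference of the leading probe sets was taken on each array and compared between ligated and sham arrays for 3 pairs at 3 times, 9 tests by a 2-sided exact permutation test over 70 arrangements, whose smallest possible p is 0.0286. Cebpd against Cebpg differed by 0.71, 2.44 and 2.51 at 6, 12 and 18 h (SE 0.16, 0.38 and 0.24). Cebpb against Cebpd differed by -0.81, -2.51 and -2.83 (SE 0.14, 0.33 and 0.19). Each of these 6 had an exact p of 0.0286, which is 0.0429 after adjustment over the 9. In each the 4 ligated arrays all lay on 1 side of the 4 sham arrays. All 6 share the Cebpd values, and with fewer tests at the smallest possible p none would have passed. The 6 h differences therefore passed only together with those at 12 h and 18 h.

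Cebpb against Cebpg differed by -0.09, -0.07 and -0.32 (exact permutation test, adjusted p = 0.714, 0.714 and 0.147). With all probe sets of a symbol averaged, 0 of the 9 passed after adjustment. Too few then had the smallest possible p of 0.0286 for any to pass, however far the arrays lay apart. Cebpd against Cebpg was then 0.13, 1.54 and 1.58 (exact p = 0.514, 0.0286 and 0.0286), and Cebpb against Cebpd -0.30, -1.55 and -1.81 (exact p = 0.114, 0.0286 and 0.0286). The separation of Cebpd from the other 2 genes at 6 h thus rests on the leading probe set. All 3 times share the 4 sham arrays.

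Across the 16 arrays, Cebpb and Cebpg had a correlation of 0.72, and 0.76 after each group's mean was subtracted. Ddit3, which encodes the C/EBP partner CHOP and was chosen here after its values were seen, had correlations of 0.81 with Cebpg and 0.64 with Cebpb, and of 0.85 with each after subtraction. For Cebpd the correlations were 0.03 with Cebpb, 0.28 with Cebpg and 0.59 with Ddit3, and 0.23, 0.063 and 3.96e-04 after subtraction. All of these share the same 16 libraries and their normalization and are given as descriptions. Replicate 3 of the 12 h group read highest of its group in Cebpb (10.67), Cebpg (8.90) and Ddit3 (9.09).

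**Figure D3:**
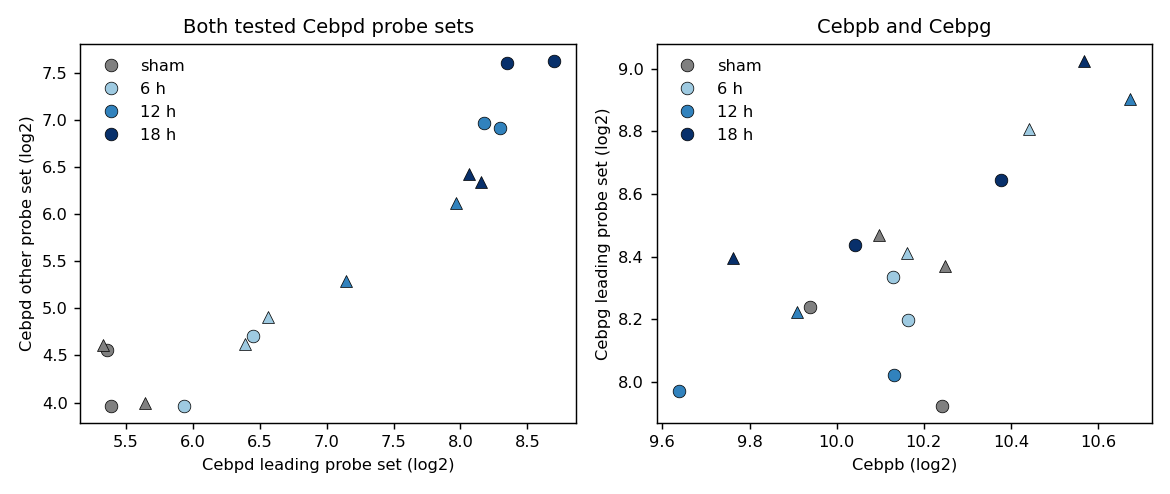
Log2 levels on the 16 arrays, plotted for 2 probe sets against each other, with the group as shade and circles for replicates 1 and 2 and triangles for replicates 3 and 4. On the left the leading Cebpd probe set (x axis) is set against the second one (y axis), and the 12 h and 18 h arrays lie apart from sham with a correlation of 0.95. On the right Cebpb (x axis) is set against Cebpg (y axis), and the groups lie among each other with a correlation of 0.72.

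Ddit3 read 6.27, 5.47, 6.24 and 5.95 in sham, 7.21, 6.86, 8.15 and 7.07 at 6 h, 6.55, 6.19, 9.09 and 7.02 at 12 h and 7.53, 8.30, 8.85 and 7.25 at 18 h. The 6 h and 18 h arrays lay above all sham arrays, and the 12 h arrays overlapped them. Its difference was 1.34 at 6 h (SE 0.53, adjusted p = 0.706), 1.23 at 12 h (adjusted p = 0.211) and 2.00 at 18 h (adjusted p = 0.0285), of which the last was called. With the set of arrays as a block the 18 h change was 1.75 (adjusted p = 0.0916). With the replicate number as a block the 12 h change was called too (adjusted p = 0.04999).

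Among 11 related and partner bZIP factors, 0 rose at 6 h, 2 rose and 1 fell at 12 h, and 6 rose at 18 h. The median change was 0.26, 0.79 and 1.17, beside 0.02, 0.02 and 0.01 over all tested probe sets. With the set of arrays as a block, 1 rose at 12 h and 4 rose at 18 h, and without replicates 1 and 2 of the 12 h group 1 rose at 12 h. Jun, a subunit of AP-1, went from 9.16 ± 0.33 in sham to 10.84 ± 0.38 at 18 h (SD, n = 4), a rise of 1.68 (SE 0.25, adjusted p = 6.65e-04). Its 12 h rise of 0.89 came to 0.32 for replicates 1 and 2 against 1.47 for replicates 3 and 4, and it was called in 5 of the 16 fits that left out 1 array. Fos, the partner of Jun in AP-1, rose by 2.55 as read at 18 h (adjusted p = 0.0105). Atf3, a stress-induced bZIP factor, rose by 3.69 as read at 18 h (adjusted p = 0.00670). With the set of arrays as a block Atf3 had an adjusted p of 0.0542.

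The other two that rose at 18 h, named after their values were seen, were Crem (1.47, adjusted p = 0.00729), a cAMP-responsive factor, and Nfil3 (1.17, adjusted p = 0.0175), a repressor that binds sites like those of the PAR bZIP proteins. Nfil3 also rose at 12 h (1.10, adjusted p = 0.0302). The PAR bZIP factor Hlf, at 5.77 in sham and 5.10 at 12 h, fell by 0.66 at 12 h (adjusted p = 0.0470), a call made in 5 of the 16 fits without 1 array. Of 6 proteins that control C/EBP stability 3 were tested and 0 were called at any time without a block. The nearest, the ubiquitin ligase component Fbxw7, was 6.67 in sham and 5.91, 5.99 and 6.25 at 6, 12 and 18 h (adjusted p = 0.667, 0.210 and 0.455). Its 12 h difference was called lower with the set of arrays as a block (-0.71, adjusted p = 0.0442) and with the replicate number as a block (adjusted p = 0.0179).

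Of 18 genes of IL-6 and IL-1 signalling, which lies upstream of Cebpb and Cebpd in other tissues, 10 were tested. Of these 0, 3 and 4 rose at 6, 12 and 18 h and none fell, with medians of 0.06, 0.29 and 0.54. Over all 13410 tested probe sets, 15, 505 and 697 were called higher. Il1r1, the IL-1 receptor, rose from 6.45 ± 0.37 in sham to 8.29 ± 0.59 at 12 h and 8.29 ± 0.23 at 18 h (SD, n = 4), by 1.85 at both times (SE 0.25, adjusted p = 3.99e-04 and 3.27e-04). Nfkbia, the NFKB inhibitor that NFKB itself induces, rose by 0.64 and 0.71 (adjusted p = 0.00718 and 0.00263). Stat3, the factor activated by IL-6 family receptors, went from 9.73 ± 0.38 to 11.69 ± 0.70 at 18 h, a rise of 1.97 (adjusted p = 7.22e-04).

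The 12 h rise of Stat3, 1.10, was called in 10 of the 16 fits without 1 array. With replicates 1 and 2 of the 12 h group left out, Stat3 and Nfkbia had adjusted p-values of 0.113 and 0.0751 at 12 h, and 1 of the 10 genes was then called higher. Rela, an NFKB subunit, rose by 0.57 at 18 h (adjusted p = 0.0121, and 0.0555 with the set of arrays as a block). The cytokine genes Il6, Lif, Osm, Il1b and Tnf, the receptor gene Lifr and the feedback inhibitor Socs3 did not reach the minimum and were not tested. Of these, Il6 and Il1b reached 5 on 1 array each and Socs3 on 2.

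Glucocorticoids also induce Cebpd in other tissues. Of 6 genes of the glucocorticoid receptor and its response, 0, 0 and 2 rose, with medians of 0.03, 0.18 and 0.05. The 2 at 18 h were the phosphatase gene Dusp1 (1.94, adjusted p = 0.0157) and the kinase gene Sgk1 (0.68, adjusted p = 0.0167). The Dusp1 call was lost without replicate 1 or replicate 3 of the 18 h group, and the Sgk1 call without either of these or sham replicate 2, with adjusted p-values up to 0.0511 and 0.0543. With the set of arrays as a block Sgk1 was called at 12 h too (adjusted p = 0.0171).

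**Figure D4:**
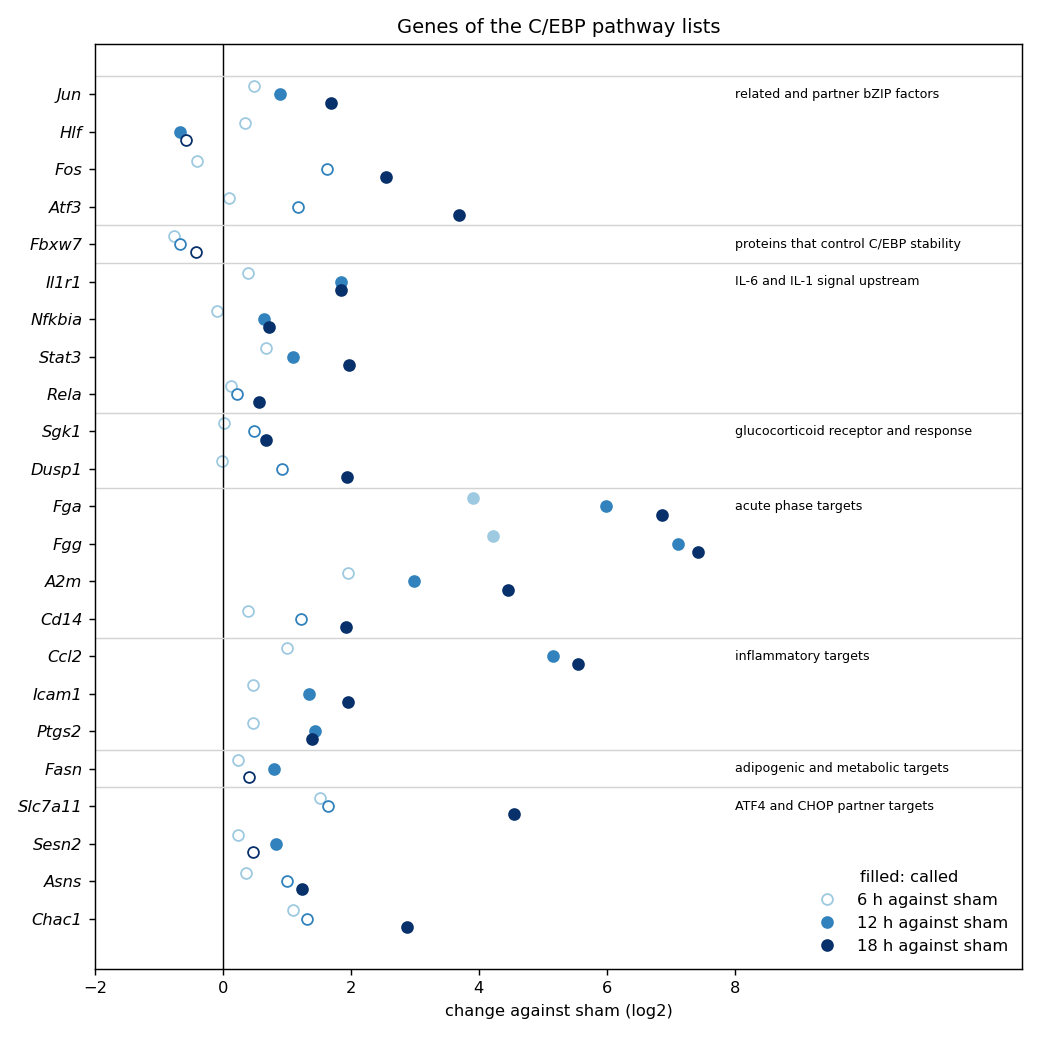
Change against sham (log2) of the named genes of the pathway lists at 6, 12 and 18 h. Filled points passed the adjusted p threshold of limma. Fga and Fgg show the largest changes drawn, and both are filled at all 3 times. For these and other genes with a sham mean under 5, changes are counted from that mean as read.

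Acute phase genes are the classical targets of C/EBP factors in liver. Of 17 such genes 15 were matched and 10 tested, of which 2, 3 and 4 rose at 6, 12 and 18 h and none fell, with medians of 0.34, 1.04 and 2.13. With the set of arrays as a block, 2, 5 and 5 rose. Fga, the fibrinogen alpha chain, was at 3.59 ± 0.44 in sham, 7.50 ± 0.72 at 6 h, 9.58 ± 0.86 at 12 h and 10.45 ± 1.24 at 18 h (SD, n = 4). It rose by 3.91, 5.99 and 6.86 as read (adjusted p = 0.0118, 1.99e-05 and 5.16e-06). Fgg, the gamma chain, was at 2.90 ± 0.49, 7.12 ± 1.46, 10.01 ± 0.40 and 10.33 ± 1.19. Its rises as read were 4.22, 7.11 and 7.43 (adjusted p = 0.0143, 1.37e-05 and 7.40e-06).

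The 6 h calls of Fga and Fgg were lost without sham replicate 4, and that of Fgg also without replicate 2 or 3 of the 6 h group (adjusted p up to 0.0640). Both were thus called at 6 h, where Cebpd at 0.90 was not, and the difference between the genes in timing was not tested. Their RefSeq promoters are printed because they rose furthest among these target genes. Fga (first of 2 listed starts, chr2:170671919-170672218, GRCr8, plus strand) held TTCNNNGAA 242 bases and TTNNGNAA 144 bases before the start. The window of the second Fga start held TTNNGNAA and no TTCNNNGAA. Fgg (chr2:170652833-170653132, plus strand) held TATAAA 50 bases before its start and CCAAT, on the opposite strand, 30 bases after it. Neither TTCNNNGAA nor TTNNGNAA matched in the Fgg window. Matches are again in capitals.
Fga: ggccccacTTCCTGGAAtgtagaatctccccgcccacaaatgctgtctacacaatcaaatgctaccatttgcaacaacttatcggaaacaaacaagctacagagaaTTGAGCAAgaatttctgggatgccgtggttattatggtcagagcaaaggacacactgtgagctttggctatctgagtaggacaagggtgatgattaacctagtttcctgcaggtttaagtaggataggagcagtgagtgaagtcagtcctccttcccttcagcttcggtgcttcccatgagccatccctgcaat
Fgg: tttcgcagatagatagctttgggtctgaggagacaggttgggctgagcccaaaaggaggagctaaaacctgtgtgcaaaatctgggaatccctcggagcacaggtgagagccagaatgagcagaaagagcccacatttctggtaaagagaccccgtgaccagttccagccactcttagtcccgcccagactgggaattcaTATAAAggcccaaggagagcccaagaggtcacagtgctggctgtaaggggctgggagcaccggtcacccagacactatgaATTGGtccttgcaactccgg

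A2m, the protease inhibitor alpha-2-macroglobulin, rose by 2.99 at 12 h (adjusted p = 0.0173) and 4.45 at 18 h (adjusted p = 8.97e-04), both as read. Its 12 h call was lost without sham replicate 4 or replicate 4 of the 12 h group (adjusted p up to 0.0524). Cd14, an endotoxin co-receptor that is also on the macrophage list, rose by 1.92 as read at 18 h (adjusted p = 0.0158). This adjusted p was up to 0.0537 without replicate 1 or 2 of the 18 h group. Cd14 was called at 12 h with the set of arrays as a block (adjusted p = 0.0289). With Alb at background on all arrays, the rises of Fga, Fgg and A2m were seen with all 6 hepatocyte markers under 5.

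Of 9 inflammatory target genes 4 were tested and 0, 3 and 3 rose, with medians of 0.47, 1.88 and 2.03. Ccl2, a chemokine for monocytes, rose from 3.49 ± 0.38 in sham to 8.64 ± 1.92 at 12 h and 9.04 ± 1.38 at 18 h (SD, n = 4). These rises were 5.16 and 5.56 as read (adjusted p = 0.00220 and 9.30e-04). Icam1, a leukocyte adhesion receptor, rose by 1.35 and 1.95 (adjusted p = 0.0102 and 5.46e-04). The prostaglandin synthase gene Ptgs2 rose by 1.43 and 1.40 (adjusted p = 0.0460 and 0.0430), calls made in 3 and 5 of the 16 fits without 1 array. Without replicates 1 and 2 of the 12 h group, which were high in S100a8 and S100a9, 1 of the 4 was called at 12 h, and Icam1 had a change of 1.34 with an adjusted p of 0.0584.

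Of 8 targets of the C/EBP partners ATF4 and CHOP, 0, 1 and 3 rose, with medians of 0.26, 0.70 and 0.82. Without replicates 1 and 2 of the 12 h group, 3 rose at 12 h. Sesn2, a stress-induced regulator of growth signalling, rose by 0.82 at 12 h (adjusted p = 0.00601). Slc7a11, the cystine transporter, went from 4.65 ± 0.21 to 9.19 ± 0.79 at 18 h (SD, n = 4), a rise of 4.55 as read (adjusted p = 0.00194). Asns, asparagine synthetase, rose by 1.23 at 18 h (adjusted p = 0.0347). Chac1, which degrades glutathione, rose by 2.88 as read at 18 h (adjusted p = 0.0498). These 18 h calls of Asns and Chac1 were made in 10 and 4 of the 16 fits without 1 array. Of 5 tested adipogenic and metabolic targets 0, 1 and 0 rose, with medians of -0.56, 0.62 and 0.41. The 12 h and 18 h medians were 0.95 and 1.25 in replicates 1 and 2, and -0.45 and -0.48 in replicates 3 and 4. The 1 that rose was the fatty acid synthase gene Fasn at 12 h (0.80, adjusted p = 0.0278, called in 10 of the 16 fits without 1 array). Fasn was not called without replicates 1 and 2 of the 12 h group (adjusted p = 0.219). Of 7 matched granulocyte granule targets of Cebpe, 0 reached a level of 5 in at least 4 arrays, and none was tested. S100a8 and S100a9, which are on this list, reached 5 on 1 and 2 arrays of the 12 h group.

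The genes whose pattern over the 16 arrays was most like that of Cebpd, among 8307 other tested genes ranked by Pearson correlation, were Myc (0.96), Tpd52 (0.94), Ccl2 (0.94), Fmo5 (0.94) and Sbno2 (0.93). The most opposite were Tacc2 (-0.96), Rbm11 (-0.96) and Etv4 (-0.95). Myc, a growth-regulating transcription factor, had means of 4.18, 4.45, 6.02 and 6.38 in sham and at 6, 12 and 18 h, of which the first 2 are under 5. Sbno2, a transcriptional coregulator induced by IL-10, had means of 6.18, 6.94, 7.90 and 8.55. Fmo5, a flavin monooxygenase gene, had means of 7.71, 8.70, 9.91 and 10.72.

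Etv4, an ETS factor downstream of ERK signalling, ran in the opposite order, with means of 11.35, 10.79, 8.27 and 7.43. Rbm11, an RNA-binding protein gene, went from 12.15 to 10.05 and Tacc2 from 10.69 to 9.37 between sham and 18 h. After the means of replicates 1 and 2 and of replicates 3 and 4 were removed the 8 correlations were between 0.93 and 0.97 in size. They were picked as the extremes of a ranking over arrays that differ by group, and are descriptions without a test.

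**Figure D5:**
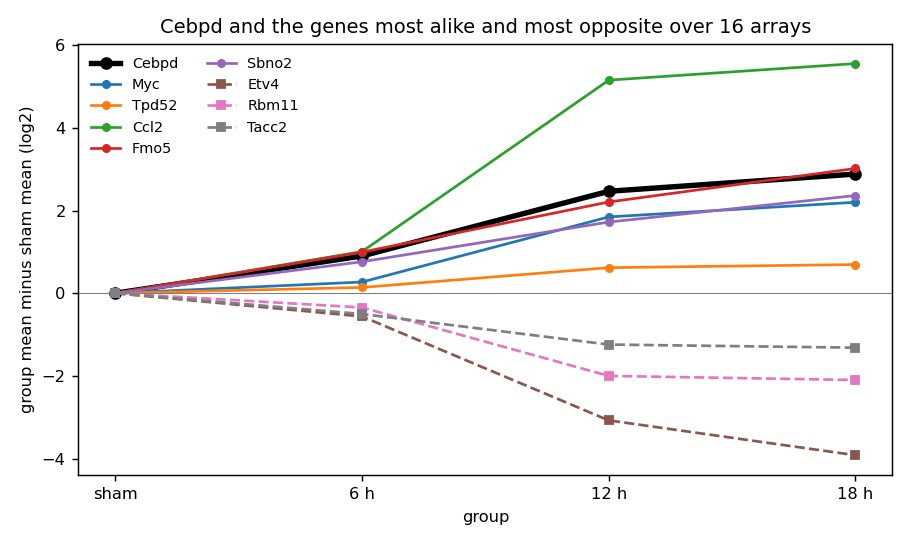
Group mean minus the sham mean (y axis, log2) of Cebpd (thick line) and of the 8 genes with the most alike (solid) or most opposite (dashed) pattern, by group (x axis), each point the mean of 4 arrays. Myc, Tpd52, Ccl2, Fmo5 and Sbno2 lie above 0 after ligation, as Cebpd does, and Tacc2, Rbm11 and Etv4 lie below 0.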

How the data were processed

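Total RNA of the initial segment was hybridised to 16 single-colour rat expression arrays, 4 per group. The deposited log2 values were made by the authors with GCRMA, per the submitters' processing notes, with a version not given in the sources used here, and they were used as deposited, without further scaling. The table held 31042 probe sets beside 57 controls. The platform annotation gave 20826 probe sets 1 gene symbol, 436 several and 9780 none, and only probe sets with 1 symbol were named. Probe sets at or above 5 in at least 4 of 16 arrays (13410) were fitted with limma 3.58.1 (R 4.3.3, with statmod 1.5.0) as 4 group means, with the default eBayes prior and Benjamini-Hochberg adjustment within each comparison. The scripts were tested on simulated data. The labels call each array a biological replicate, but nothing in them says which animal it came from. Sham tissue came from the opposite side of ligated animals, so sham and ligated arrays may share animals. The main fit treats them as independent. Its p-values measure the spread between these arrays and take no account of shared animals.

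From each pathway list, up to 4 called genes with the smallest F-test p were named, or the first gene where none was called, with the 5 most alike and 3 most opposite genes for each called member. Other names are given as chosen after their values were seen. The members, lists and tests were chosen with earlier results of these data known. The number of arrays limits the precision. Promoter windows and gene positions came from RefSeq tables of GRCr8, and no genome sequence was used. Alternatives were other normalizations, priors, minimum levels and blocks, leaving out each array, and averaging of probe sets.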

Additional observations from a re-analysis of the deposited data

Results flagged for a closer look

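At 6 h, Cebpb on replicate 3 (10.44) lay apart from the other 3 arrays (10.13 to 10.16), with a gap of 0.894 of the group's range. At 12 h the Cebpg probe set 1371038_at on replicate 3 (6.57) lay apart in the same way, with a gap of 0.870 of the range. Chance alone gives such a gap in about 1 in 20 groups, and 20 groups of tested member probe sets were examined.

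The effect of ligation on Cebpd differed between times by limma. On the leading probe set the 12 h change was 1.56 above the 6 h change and the 18 h change was 1.98 above it. On 1368813_at, whose 6 h mean is under 5, the corresponding differences were 1.77 and 2.45 as read.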

How the results depend on the processing

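The Cebpd rises at 12 h and 18 h were called in all 31 alternatives, with changes from 1.50 to 2.86 and from 1.87 to 3.26. The Cebpd difference at 6 h was called in 2 of 31. It was 0.90 with the set of arrays as a block, where 1 member gene was called at 6 h. That fit called 54 of all 13410 tested probe sets at 6 h, against 38 in the main fit. It was 0.83 to 1.04 with 1 array left out, where 0 to 1 member genes were called. Without replicate 4 of the 12 h group, which gave that call, 33 of all tested probe sets were called. Replicate numbers were not taken to pair samples, since the labels do not tie them to animals. Same-numbered arrays had correlations of 0.0065 to 0.56 in their deviations from group means, and an array correlated best with its own number in 28 of 48 cases. With the replicate number as a block the Cebpg change at 18 h was 0.38 and called, giving 2 member genes called at 18 h. That fit called 2165 of all tested probe sets at 18 h, against 1362 in the main fit. In the same fit Asns at 12 h was called (adjusted p = 0.00663) and Hlf at 12 h was not (adjusted p = 0.0553). Within replicates 3 and 4, 0 member genes were called between 12 h and 6 h, beside 115 of all tested probe sets. With probe sets averaged, 0 of the 9 member pair tests passed, where too few reached the smallest possible p for any to pass.

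Signs near 0 turned. The Cebpb change at 12 h was 0.12 within replicates 3 and 4, 0.16 without the 12 h arrays of replicates 1 and 2, and -0.24 to 0.11 with 1 array left out, and at 18 h it was -0.00785 within replicates 3 and 4 and -0.0712 to 0.20 with 1 array left out. The Cebpg change at 12 h was -0.00220 with arrays centred on their medians, -0.0857 within replicates 1 and 2, -0.22 with array weights, -0.0370 with probe sets averaged and -0.18 to 0.13 with 1 array left out. The cause of these shifts was not tested.

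Calls over all tested probe sets ranged, across alternatives, from 3 to 104 at 6 h (38 reported), 477 to 2426 at 12 h (1054), 827 to 2179 at 18 h (1362), 115 to 1471 between 12 h and 6 h (574), 0 to 110 between 18 h and 12 h (0) and 460 to 2030 between 18 h and 6 h (1057). Of the list counts, 76 of 837 alternatives moved by over 1.5 times. Levels under 5 limit what can be said of Cebpa and Cebpe.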
